A study of Mus musculus with 30 samples.

Results

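Mouse retinal organoids grown from 1 line of induced pluripotent stem cells were compared within each collection day, the library numbered replicate 2 against those numbered 1 and 3. The days were D10, D12, D15, D18, D22 and D25, so 6 libraries of replicate 2 stood against 12 of the other replicates, out of 30 libraries in the series. The question was which classes of genes differ between cultures of 1 line. The number 2 was chosen by measured values: earlier work on these data had shown that these 6 libraries give a smaller share of Rpl3 reads to its pseudogene than the other 12. The comparison of replicate 2 with the others at D10 to D25 is therefore given as a description, and the tests are on other contrasts. Tests within D10 to D25 use the same libraries, and the choice had placed replicates 1 and 3 on the same side. These tests are thus not independent of the choice.

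All libraries came from 1 wild-type clone that carries the Nrl-GFP transgene, in which the promoter of the rod factor gene Nrl drives green fluorescent protein. The clone was reprogrammed from embryonic fibroblasts with inducible Oct3/4, Sox2, Klf4 and c-Myc, and the labels name no difference in genotype or line between the groups. Whether every library holds the same cells was not tested. Every group received the same media: from D10 to D26 these held N2 supplement, 1 mM taurine, 500 nM 9-cis retinal and IGF-1 (insulin-like growth factor) at 100 ng/ml, and oxygen went from 5% to 20% at D10. Neural retina was cut from pooled organoids, 20 at D10 and 12 from D12 onwards. The labels call the 3 libraries of a day biological replicates, and they do not say that a number stands for a culture batch that continues from day to day. Of the days outside the comparison, D0 was the stem cells, kept on feeder cells, D4 whole aggregates, and D7 and D32 dissected neural retina.

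Genomic imprinting, one of the classes considered, is the expression of a gene from only the maternal or the paternal chromosome, and it is held in place by DNA methylation that is known to shift in cultured pluripotent cells. Processed pseudogenes, another class, are copies of spliced messenger RNAs set back into the genome. They can match their gene almost base for base, so the few differing bases decide which of them receives a read. Retinal neurons arise in a fixed order, with ganglion cells early and rod photoreceptors later, while the pigment epithelium forms from the same optic tissue.

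How close a gene and a copy can be is shown by stretches of coding sequence in which capitals mark the bases that differ (GRCm38, GENCODE M21, both 5′ to 3′). They carry the first finding, since the levels of these pairs moved in opposite directions between the replicates. For the Rpl3 pair this follows from how replicate 2 was chosen. Rps3a1 encodes a protein of the small ribosomal subunit (gene at chr3:86137940-86142702), Rps3a2 is its processed copy on chromosome 14, and the stretches lie at chr3:86141307-86141426 and chr14:88123523-88123642 on the minus strand. Rpl3 encodes a protein of the large subunit (gene at chr15:80077794-80091868) and Rpl3-ps1 is its copy on chromosome X, with stretches at chr15:80082463-80082582 on the minus and chrX:13202575-13202694 on the plus strand.
Rps3a1: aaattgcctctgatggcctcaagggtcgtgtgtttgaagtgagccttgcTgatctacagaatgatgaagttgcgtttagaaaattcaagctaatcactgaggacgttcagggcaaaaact
Rps3a2: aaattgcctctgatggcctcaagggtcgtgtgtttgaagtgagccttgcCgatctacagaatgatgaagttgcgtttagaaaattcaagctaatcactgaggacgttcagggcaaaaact
Rpl3: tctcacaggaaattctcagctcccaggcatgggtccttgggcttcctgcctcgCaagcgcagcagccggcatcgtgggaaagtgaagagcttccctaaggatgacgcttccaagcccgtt
Rpl3-ps1: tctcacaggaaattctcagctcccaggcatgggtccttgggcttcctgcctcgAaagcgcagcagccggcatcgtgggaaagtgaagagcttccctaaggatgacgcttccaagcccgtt
Over the 792 coding bases of Rps3a1, the copy differed at 4, written with the gene's base first and counted from 1 at the first coding base: T216C, T534C, A645T and T668C. Over the 1209 coding bases of Rpl3 the copy differed at 2, C57A and T786C. Rpl34 and Rpl34-ps1 differed at 2 of 351 coding bases, T132C and C318G.

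Depth did not set the libraries apart, with totals of 17.78 to 20.85 M estimated counts in replicate 2 and 16.77 to 22.09 M in the others. Ribosomal RNA stayed at or below 0.132% in these 18 libraries, while it took 17.6% in replicate 2 of D4, which enters only alternative fits that add D4. Pseudogenes took 1.34% to 1.90% of the counts in replicate 2 and 1.67% to 2.56% in the others, and replicate 2 was the lowest library on 6 of 6 days. Genes encoded in the mitochondria took 1.90% to 5.18% in replicate 2 and 1.40% to 5.05% in the others, with replicate 2 highest on 4 of 6 days. Correlation of log2 levels over genes within a day was 0.987 to 0.994 between replicates 1 and 3 and 0.977 to 0.990 for pairs that included replicate 2. On each of the 6 days the pair of replicates 1 and 3 was the closest, by as little as 0.987465 against 0.986988 at D18.

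Of 16903 autosomal genes tested that are not pseudogenes, 889 were called at an adjusted p below 0.05 in the edgeR quasi-likelihood fit, 449 of them higher and 440 lower in replicate 2. These are 5.26% of the genes tested, 2.66% higher and 2.6% lower, and nothing is read from these shares because the rule chose the libraries. Of 619 autosomal pseudogenes tested, 87 were called, 14.1%, and 62 of them were lower. Without the D15 library of replicate 2, 554 of the genes were called. The share called was 5.44% of 14569 protein-coding genes, 4.76% of 904 long intergenic RNAs and 3.19% of 752 antisense RNAs. The median log2 change over all 16903 genes was 0.0032, and the medians of single autosomes lay between -0.030 on chromosome 15 and 0.050 on chromosome 13.

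Genes were also counted by the share of their sequence that occurs in other genes. Among 4760 genes with no 31-base window shared with another gene, 216 were called (4.54%). Among 893 genes that share 50% or more of their windows, 118 were called (13.2%), and among 341 pseudogenes of that kind 65 were called (19.1%). Chromosome 14 had the highest share called of all autosomes, 13.1%. There, 52 of 88 genes that share 50% or more of their windows were called, against 32 of 555 other genes. These shares describe the same fit and were not tested against each other.

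Within families of a gene and its copies, the division of the summed level between members differed. A copy was counted with a gene when at least 50% of its windows occur in that gene, and 158 families had a copy of at least 2 CPM. Level here is the deposited normalised CPM (counts scaled to library size), which is not corrected for length. In 43 of the 158 families the gene was called, beside 5.26% of all genes. With copies added to the gene, 28 families were called as sums, 22 of them among the 43, and the other 21 of the 43 were not. Over the 43, the median size of the log2 change was 0.40 for the gene and 0.29 for the sum. In 10 families the called gene differed by a log2 change of at least 1, and in all 10 it was higher in replicate 2.

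Rps3a1 stood at 469, 940 and 1629 CPM (lowest, median, highest) in the 6 libraries of replicate 2 and at 97.0, 200 and 254 in the 12 others. The groups did not overlap, and the fitted log2 change was 2.36 ± 0.12 (SE, n = 6 and 12). Its copy Rps3a2, the second pair member printed above, showed the opposite, with 124, 247 and 305 CPM in replicate 2 and 515, 962 and 1275 in the others. The copies together held 11.5% to 31.3% of the family in replicate 2 and 82.9% to 87.5% in the others. The family sum differed by -0.090 ± 0.090 on the log2 scale, so the sum was about level while its division was not.

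Rpl3 stood at 514, 968 and 1427 CPM in replicate 2 and at 119, 208 and 271 in the others, a log2 change of 2.21 ± 0.07. Rpl3-ps1 stood at 163, 306 and 376 CPM in replicate 2 and at 548, 1118 and 1635 in the others, again with no overlap. The share of this pair had set the choice of replicate 2, so its opposite shift is not a further result. The sum of the family differed by -0.12 ± 0.07. Rpl29, another protein of the large subunit, was higher by 2.17 ± 0.09 with a family sum of 0.20 ± 0.08, and its copies Gm13841 and Gm8210 were lower by equal amounts because their estimates were equal in every library. Rpl34 was higher by 1.41 ± 0.09 with a family sum of 0.047 ± 0.078, and Rps7, of the small subunit, by 1.41 ± 0.09 with a sum of 0.0014 ± 0.0793.

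The pattern was not limited to ribosomal proteins. Capza1, which caps actin filaments, was higher by 1.11 ± 0.09 while Gm3608 was lower by -1.80 ± 0.11 on the log2 scale, and their sum differed by -0.0063 ± 0.0594. Ncoa4, the receptor that delivers ferritin to autophagy, was higher by 1.20 ± 0.09, its copy Gm6768 had a log2 change of -1.60 ± 0.07, and the sum was slightly lower at -0.35 ± 0.06. Sums stayed higher for Rplp0, the stalk protein of the large subunit (1.55 ± 0.09), for the chromatin protein Hmgn2 (0.49 ± 0.09) and for Hmgb1, a DNA-bending protein (0.62 ± 0.08). Copies that share less than 50% of their windows were not in these sums. Eno1b, an intronless copy of the glycolytic enzyme gene Eno1, stood at 171, 324 and 622 CPM in replicate 2 and 709, 1833 and 2367 in the others, while Eno1 had a log2 change of 0.32 ± 0.09 that turned to -0.30 once its copies were added.

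**Figure D1:**
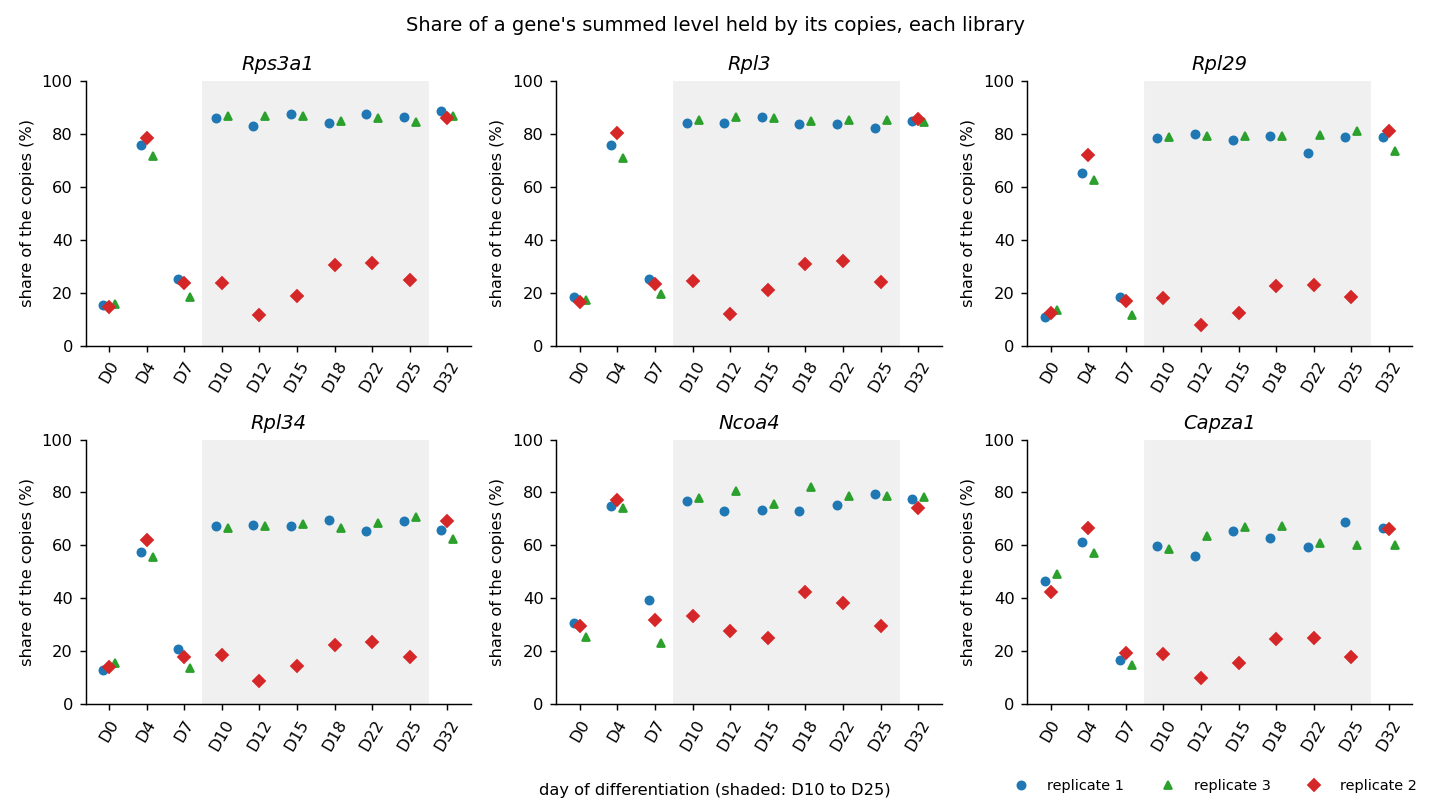
Share of the summed level of a gene and its copies that the copies hold (percent, 1 point per library) for 6 families over the 10 collection days, with D10 to D25 shaded and symbols for the 3 replicate numbers. In the shaded days replicate 2 lies at 7.85% to 42.2% and replicates 1 and 3 at 56.1% to 87.5%, while all 3 libraries of D0 and D7 lie below all those of D4 and D32.

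Outside D10 to D25 the copy shares of a day went together. For Rps3a1 the copies held 14.6% to 15.8% at D0, 71.8% to 78.5% at D4, 18.34% to 25.16% at D7 and 86.2% to 88.6% at D32. In all 10 families, the 12 libraries of replicate 2, D0 and D7 lay below the 18 libraries of replicates 1 and 3, D4 and D32. Replicate 2 at D4 and D32 was thus on the side of replicates 1 and 3, and replicates 1 and 3 at D0 and D7 were on the side of replicate 2. The 10 families were picked by the change of their gene at D10 to D25, so their separation on those days is not a separate result. What the 12 libraries share was not tested, and for D0, D4, D7 and D32 the day and the side cannot be told apart.

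A second class held genes and gene models that were near 0 in replicates 1 and 3. Ftl2-ps, a processed copy of the ferritin light chain (chr4:125504288-125504839), stood at 9.87, 20.7 and 25.27 CPM in replicate 2 and at 0 to 0.071 in the other 12 libraries, where its median was 0. It stood at 19.1 to 34.2 at D7 but at most at 0.080 at D0. The pseudogenes Gm20746 and Gm11478 showed the same order, with at least 4.34 and 6.21 CPM in replicate 2 and at most 0.089 and 0.29 in the others. Gm10116, a model annotated as coding on chromosome 13 and chosen after its values were seen, stood at 62.6, 129 and 163 CPM against 0.34, 1.05 and 1.40. Folds are not given for the pseudogenes because the denominators lie near 0. In the other direction the pseudogene Gm14150 stood at 11.1, 12.6 and 20.6 CPM in replicate 2 and at 67.7, 94.4 and 133 in the others.

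Genes with proper names were found here too. Capn11, a calpain protease known from testis (chr17:45630204-45659325), stood at 3.85, 5.63 and 8.27 CPM in replicate 2 and at 0.11, 0.31 and 0.82 in the others, a log2 change of 3.85 ± 0.27, and it shared no window with another gene. Rec8, the cohesin subunit of meiotic chromosomes, stood at 4.47, 8.71 and 14.6 CPM against 0.43, 1.36 and 3.71. Oasl2, of the interferon-induced oligoadenylate synthetase family, was higher by 3.53 ± 0.29. It was the only called member of 16 tested interferon genes, beside 5.26% of all genes called. Duxbl1, a double homeobox gene, was higher by 3.91 ± 0.37, but 96.1% of its windows occur in other genes.

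Of 335 zinc finger genes named Zfp, 17 were higher and 1 was lower, beside 2.66% and 2.6% of all genes, and their median log2 change was 0.066. Without the D15 library of replicate 2, 11 were called. Zfp429 stood at 2.38, 3.69 and 6.31 CPM in replicate 2 and at 0.17, 0.54 and 0.88 in the others, so the groups did not overlap. Zfp429, Zfp874a (1.37 ± 0.17) and Zfp273 (0.89 ± 0.14) lie on chromosome 13, where 4 of 35 Zfp genes were called. Zfp960 had a log2 change of -0.41 ± 0.08.

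**Figure D2:**
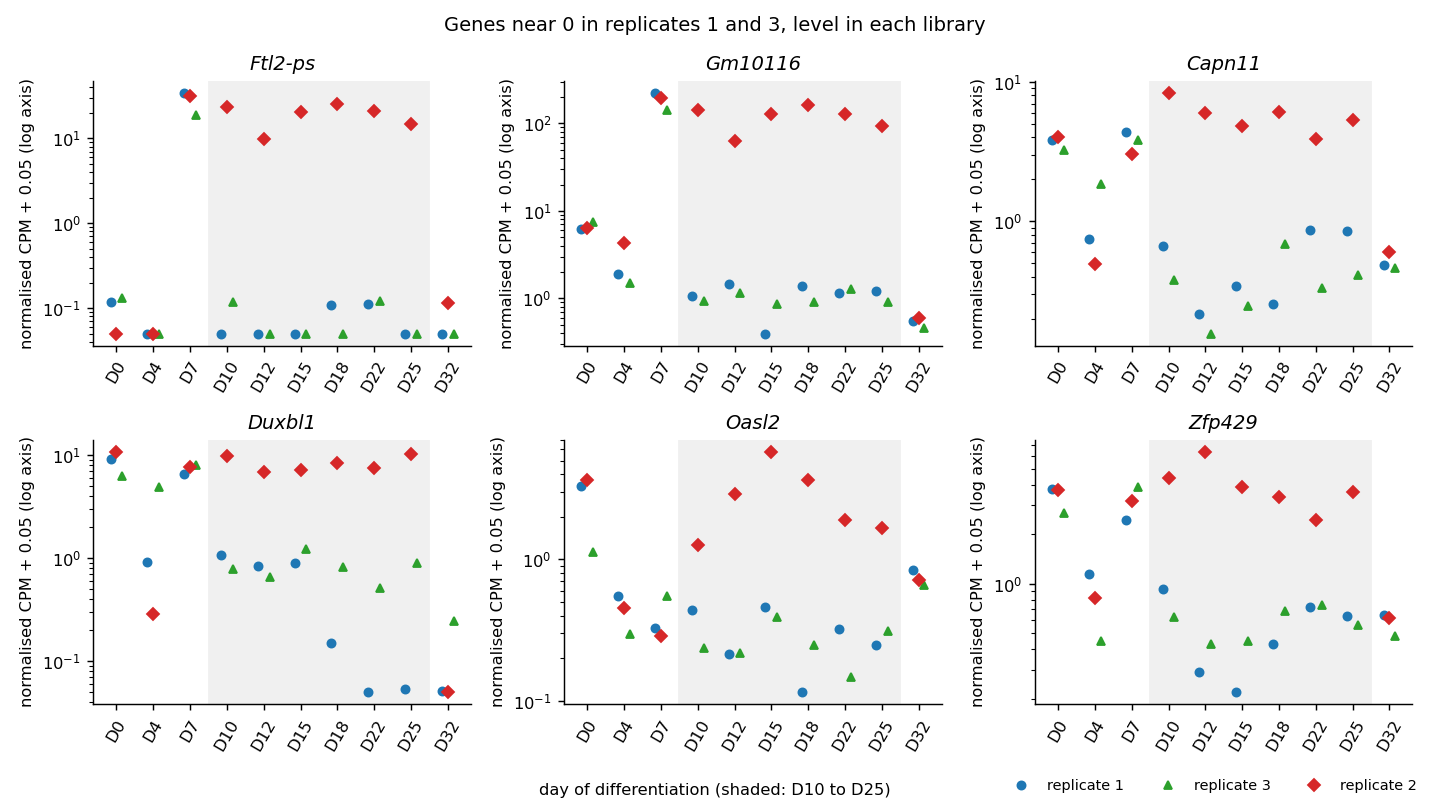
Normalised CPM plus 0.05 on a log axis (1 point per library) over the 10 days for Ftl2-ps, Gm10116, Capn11, Duxbl1, Oasl2 and Zfp429, with symbols for the 3 replicate numbers and D10 to D25 shaded. On each shaded day replicate 2 lies above both others in all 6 panels; at D7 Ftl2-ps is high in all 3 libraries (19.1 to 34.2 CPM), and at D0, D4 and D32 it is near 0.

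Imprinted genes formed the third class. Of 33 tested, 15 were called, 7 higher and 8 lower in replicate 2, beside 5.26% of all genes, and the count of called members was 13 to 17 when each of the 18 libraries was left out in turn. Of 11 tested genes whose maternal copy is known as the active one, 5 were higher and 0 lower. Of 21 whose paternal copy is known as the active one, 2 were higher and 8 lower. Which copy was active in these libraries was not measured, and Grb10 is counted here as maternal. Replicate 2 lay outside the other 2 libraries on at least 5 days for 17 members, above for 6 and below for 11. The remaining called genes of the comparison were not examined for imprinting.

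The largest changes were in the Dlk1-Dio3 cluster on chromosome 12, whose maternal chromosome makes long noncoding RNAs. Meg3 (chr12:109541001-109571726), the first of these RNAs, stood at 22.18, 232 and 352 CPM in replicate 2 and at 0.89, 8.94 and 51.4 in the others. On each of the 6 days replicate 2 was the highest library, although its lowest value lay below the highest of the others, and the log2 change was 3.85 ± 0.63. Rian, a host of small nucleolar RNAs further along the cluster, stood at 7.55, 46.9 and 70.7 CPM against 0.74, 2.54 and 10.5 (log2 change 3.62 ± 0.40). Mirg, a host of microRNAs, was higher by 3.41 ± 0.46. Dlk1 and Dio3, the protein-coding genes of the paternal chromosome there, were not called, at -0.41 ± 0.14 and -0.44 ± 0.30.

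Replicates 1 and 3 were not alike for Meg3. Replicate 3 reached 51.4 CPM at D18 and 1.31 at D25, replicate 1 stood at 3.41 and 22.9 on these days, and replicate 2 at 310 and 318. Outside the comparison, Meg3 stood at 82.8 to 166 CPM at D0 and 102 to 144 at D7, at 3.90 to 13.5 at D4 and at 6.26 to 52.5 at D32.

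Grb10, an adaptor that dampens insulin receptor signalling and is active from the maternal chromosome in most tissues (chr11:11930508-12038683), stood at 24.0, 84.5 and 351 CPM in replicate 2 and at 5.74, 13.1 and 57.4 in the others. Replicate 2 was the highest on 6 of 6 days, with a log2 change of 2.27 ± 0.25, and Grb10 shared no window with another gene. Its active chromosome in these cells was not measured. At D10 the 3 values were 351 in replicate 2, 57.4 in replicate 1 and 41.6 in replicate 3, and at D25 they were 35.8, 12.06 and 23.1.

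On chromosome 7 all 5 tested genes of the Snrpn-Ndn cluster, active from the paternal chromosome, were lower in replicate 2. Ndn, a MAGE family protein of neurons (chr7:62346569-62350262), stood at 87.7, 104 and 122 CPM in replicate 2 and at 164, 267 and 324 in the others, with no overlap and a log2 change of -1.25 ± 0.11. Snrpn, a protein of the small nuclear ribonucleoproteins, had a log2 change of -0.95 ± 0.07, the makorin gene Mkrn3 one of -0.83 ± 0.10, Magel2 one of -0.75 ± 0.13 and Peg12 one of -0.69 ± 0.09. Each was the lowest in replicate 2 on 6 of 6 days.

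The Peg3 cluster, elsewhere on chromosome 7, divided by parental chromosome. Peg3, a zinc finger gene of the paternal chromosome (chr7:6703892-6730431), stood at 148, 224 and 443 CPM against 253, 382 and 823, and its neighbour Usp29, a deubiquitinase gene, at 16.4, 23.6 and 29.2 against 31.7, 39.7 and 50.3. Their log2 changes were -0.83 ± 0.08 and -0.81 ± 0.09. Zim1, a zinc finger gene of the maternal chromosome, was called higher at 0.99 ± 0.28, with 7.37 CPM in replicate 2 at D10 against 1.48 and 2.60, but 9.02 against 9.45 and 5.83 at D25. Its call was lost in 13 of 18 fits that left out 1 library.

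Plagl1, Peg13 and Nnat completed the called members. The first, a zinc finger factor of the paternal chromosome, was higher by 0.70 ± 0.07 and Peg13, a noncoding RNA of the paternal chromosome, by 0.86 ± 0.08, both on 6 of 6 days. Nnat, the neuronatin gene, had a log2 change of -0.62 ± 0.15, and its call was lost without the D10, the D12 or the D15 library of replicate 2 (adjusted p up to 0.090). With all 30 libraries in 1 fit, neither Plagl1 nor Nnat was called. Igf2 (-0.10 ± 0.12), H19 (0.31 ± 0.20), Peg10 (0.011 ± 0.122) and Mest (0.30 ± 0.12) were not called.

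**Figure D3:**
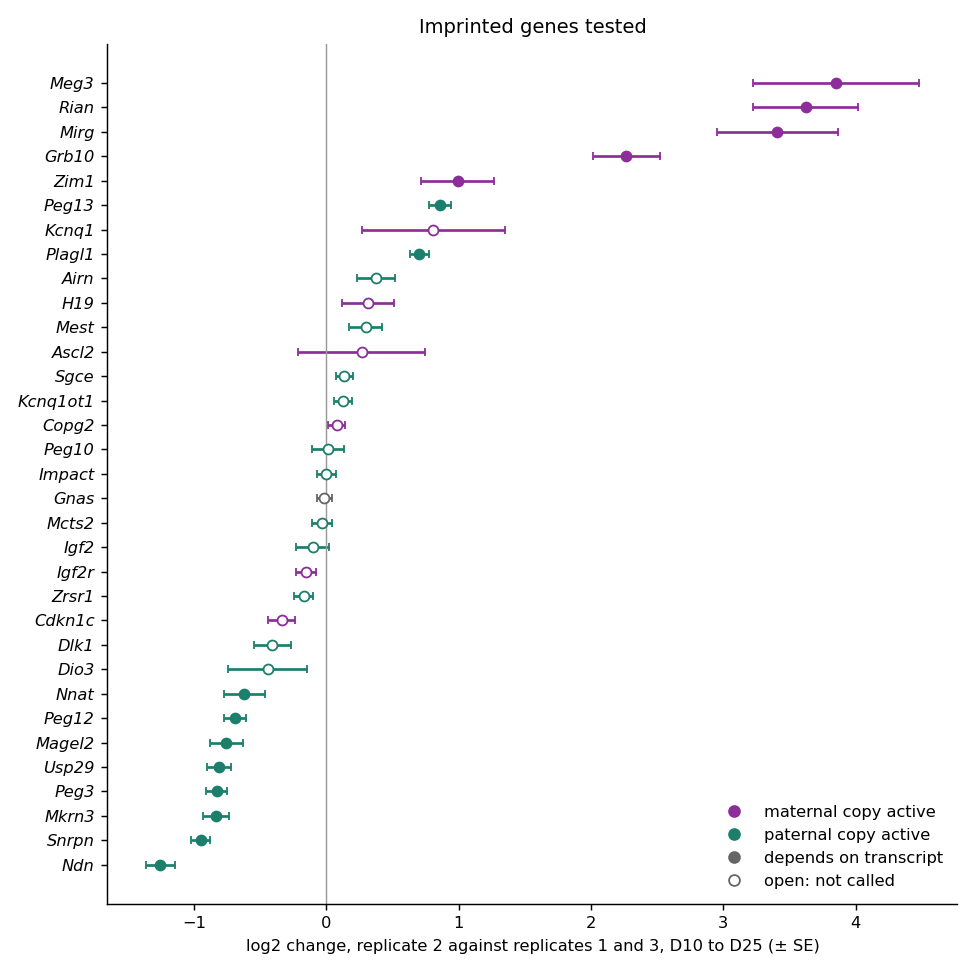
Fitted log2 change of the 33 imprinted genes tested, replicate 2 against replicates 1 and 3 over D10 to D25, with bars for the SE, colour for the chromosome known as active and open symbols for genes not called. Meg3, Rian, Mirg and Grb10 lie between 2.27 and 3.85, and the 8 called genes on the lower side, all paternally active, lie between -1.25 and -0.62.

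The sequences before the RefSeq start of Meg3 and Ndn are shown because these genes lead the higher and the lower side, with CG pairs, the site of DNA methylation, in capitals (RefSeq, GRCm38.p6, plus strand, 250 bases, chr12:109540746-109540995 and chr7:62348027-62348276).
Meg3: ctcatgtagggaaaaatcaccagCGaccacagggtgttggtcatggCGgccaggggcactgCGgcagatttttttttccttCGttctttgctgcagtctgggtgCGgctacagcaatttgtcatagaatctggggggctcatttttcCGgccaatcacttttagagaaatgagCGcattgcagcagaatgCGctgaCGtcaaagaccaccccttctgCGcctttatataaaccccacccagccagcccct
Ndn: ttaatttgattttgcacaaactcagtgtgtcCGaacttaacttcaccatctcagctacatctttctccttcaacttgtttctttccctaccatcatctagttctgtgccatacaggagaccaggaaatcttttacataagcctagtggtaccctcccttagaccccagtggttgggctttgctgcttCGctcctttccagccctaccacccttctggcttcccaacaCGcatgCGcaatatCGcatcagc
Meg3 held 10 CG pairs, and 37.8% of the 32851 stretches of this kind in the table held at least as many. Ndn held 5, and 55.6% held at least as many. CG reads the same on both strands. The Ndn stretch lies before the RefSeq start but inside the gene interval that goes with the counts (chr7:62346569-62350262). Methylation itself was not measured in these libraries.

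**Figure D4:**
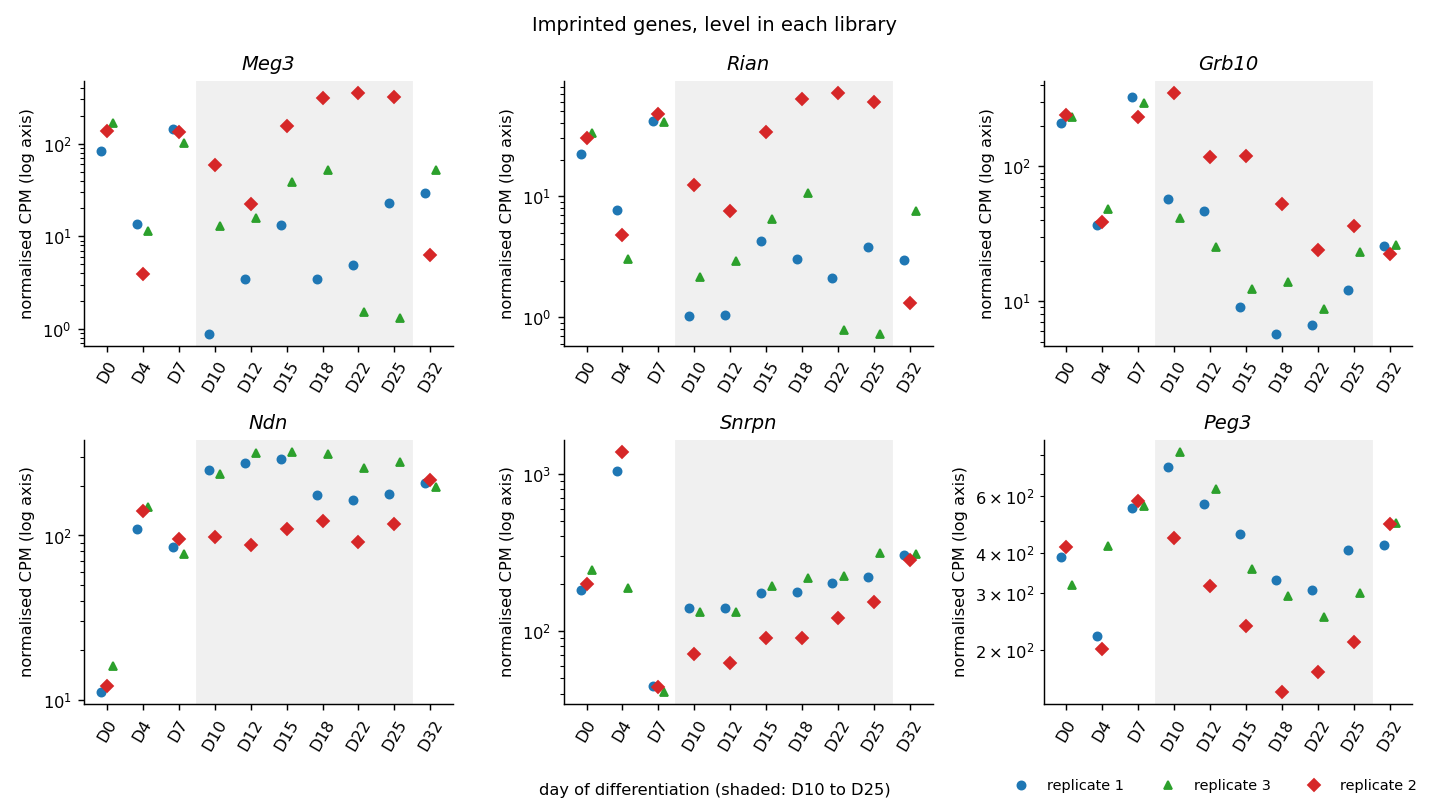
Normalised CPM on log axes (1 point per library) of Meg3, Rian, Grb10, Ndn, Snrpn and Peg3 over the 10 days, with symbols for the 3 replicate numbers and D10 to D25 shaded. On every shaded day replicate 2 is the highest for Meg3, Rian and Grb10 and the lowest for Ndn, Snrpn and Peg3, whereas at D7 the 3 libraries of each gene lie close together.

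Genes of retinal cell types are given next, beside 2.66% of all genes called higher and 2.6% called lower. Of 18 rod genes 6 were called, all higher, with a median log2 change of 0.62 over the 18; without the D15 or without the D22 library of replicate 2 the count was 3. Nrl, the factor that sets rod identity, stood at 438 CPM in replicate 2 at D22 against 206 in replicate 1 and 381 in replicate 3, and at 1170 against 724 and 749 at D25. Its log2 change was 0.65 ± 0.14. Replicate 3 lay above replicate 1 by 0.55 ± 0.16, a difference that was not called (adjusted p = 0.158, edgeR). For Nrl the gap of replicate 2 was thus close in size to the gap between the other 2.

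Nr2e3, a nuclear receptor that acts with Nrl, stood at 464 CPM in replicate 2 at D22 against 174 and 333, and at 882 against 504 and 418 at D25 (log2 change 1.01 ± 0.18). Cngb1, a subunit of the rod cation channel, stood at 433 CPM at D25 against 170 and 190 (1.31 ± 0.23). Rod arrestin, Sag, stood at 1047 CPM at D25 against 451 and 458, and its call (0.70 ± 0.19) was lost in 11 of 18 fits that left out 1 library. With limma on the deposited CPM plus 1 or plus 0.1, Nrl, Cngb1 and Sag were not called, and Nr2e3 was not called with CPM plus 1. At D32, Nrl stood at 812 CPM in replicate 2 against 699 and 926, inside the range of the other 2.

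Of 11 cone genes 2 were called, both higher. Cngb3, a subunit of the cone channel, was higher by 0.53 ± 0.09 on 6 of 6 days. Opn1sw, the short-wavelength opsin, was higher by 1.03 ± 0.26, and its call was lost in 9 of 18 fits that left out 1 library, which left 1 cone gene. Of 14 outer segment and cilium genes 4 were called, all higher, and only Rp1, a microtubule protein of the outer segment (0.95 ± 0.17), kept its call in every such fit; the count fell to 1 without a D15 or D22 library of replicate 1 or 2. Crx, the general photoreceptor factor, was not called (0.083 ± 0.147). Of the other neural lists, 2 of 14 amacrine and 2 of 12 photoreceptor factor genes were called, all higher, the latter being Nrl and Nr2e3, given above. So were 1 of 15 neurogenic and 1 of 10 bipolar genes, while 1 of 13 Müller glia genes was lower. In this order, the median log2 changes over all tested members were 0.19, 0.28, -0.10, 0.0028 and -0.14. Leaving out 1 library gave 0 to 2, 2 to 4, 0 to 4, 1 to 2 and 1 to 2 calls in these lists; the amacrine count was 0 without replicate 2 or 3 of D18 or replicate 1 or 2 of D22, and the highest neurogenic and photoreceptor factor counts came without replicate 2 of D10. None of 12 progenitor, 16 ganglion cell or 6 horizontal cell genes was called in the edgeR fit, while leaving out 1 library gave up to 2 progenitor calls (without replicate 3 of D12) and 0 in the other lists, with Ccnd1 at -0.076 ± 0.124 and Stmn2 at -0.22 ± 0.13.

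Pigment epithelium genes lay on the other side. Of 13 tested 3 were called, all lower, beside 2.6% of all genes, and the median log2 change was -0.54; the count was 1 without any of 6 single libraries and 5 without the D15 library of replicate 3. Pmel, a melanosome protein, was the lowest in replicate 2 on 6 of 6 days, with 111 CPM at D12 against 263 and 280 and 10.0 at D22 against 32.27 and 26.7 (log2 change -1.06 ± 0.19). The summed level of the 14 markers ran from 36.0 to 1780 CPM in replicate 2 and from 64.9 to 1858 in the others, and none was at 0 in all 18 libraries. In bulk RNA, fewer cells of a type and less RNA per cell cannot be told apart. Markers of microglia and blood (0 called of 6 tested, 2 of 11, Tyrobp and Hbb-bs, at 0 in all 18 libraries, summed level 5.15 to 9.00 CPM in replicate 2 and 4.61 to 9.89 in the others) and of endothelium (0 of 6) had no called member in the edgeR fit.

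**Figure D5:**
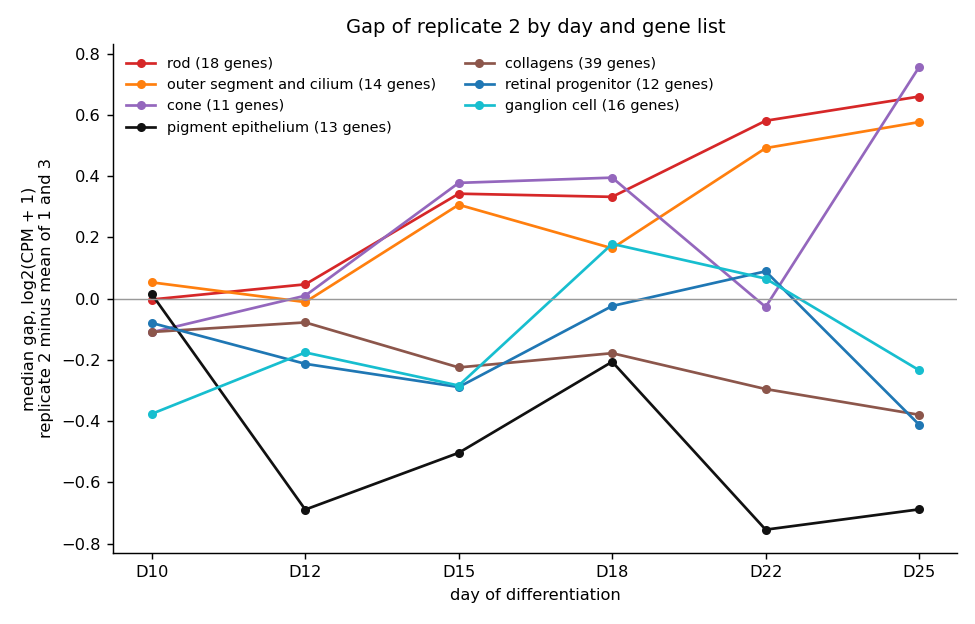
Median over each gene list of the gap in log2(CPM + 1), replicate 2 minus the mean of replicates 1 and 3, on the 6 days. The rod list goes from -0.0029 at D10 to 0.66 at D25, and the pigment epithelium list lies below 0 on 5 of 6 days, down to -0.75 at D22; the points have no error because each is 1 library against 2.

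Named genes with the largest changes on the lower side included Wnt8b. This was the 1 called member of 14 tested Wnt ligands, beside 5.26% of all genes called. No Wnt ligand was called without the D12 library of replicate 2. Wnt8b stood at 9.98 CPM in replicate 2 at D10 against 15.6 and 39.0, and at 0.31 against 9.85 and 3.66 at D12 (log2 change -2.39 ± 0.54). Rspo1, a secreted enhancer of Wnt signalling, had a log2 change of -1.80 ± 0.39 and Rspo3 one of -1.85 ± 0.50; the first call was lost without the D10 or D12 library of replicate 2 and the second in 11 of 18 fits. Foxd1, a forkhead factor of the temporal retina, stood at 0.14, 0.69 and 2.20 CPM against 0.23, 2.04 and 10.4. Trp73, of the p53 family, had a log2 change of -1.68 ± 0.32, and Vgll3, a transcription cofactor, one of -1.42 ± 0.19.

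Slc7a11, which imports cystine for glutathione synthesis, was separated without overlap: 22.32, 36.5 and 49.98 CPM in replicate 2 and 78.6, 112 and 153 in the others, with a log2 change of -1.61 ± 0.11. It was the only called member of 18 tested genes of the amino acid and endoplasmic reticulum stress response, beside 5.26% of all genes called. S100a6, a calcium-binding protein (-1.38 ± 0.22), Bspry (-1.29 ± 0.17) and the complement protease Masp2 (-1.22 ± 0.22) completed the named genes on this side, each the lowest in replicate 2 on 6 of 6 days.

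Of 13 retinoid genes 3 were called, all lower, beside 2.6% of all genes; replicate 2 lay above both others on at least 5 days for 2 members and below for 2. The retinoic acid receptor Rarb stood at 7.32, 25.0 and 42.9 CPM in replicate 2 and at 12.6, 48.5 and 63.8 in the others (log2 change -0.80 ± 0.11), and the dehydrogenase Dhrs3 had -0.87 ± 0.24, a call lost in 14 of 18 fits. Of 39 collagen genes 6 were lower, with Col11a1 at -0.68 ± 0.10, and 1 was higher, Col17a1 at 0.76 ± 0.18, a call lost without the D10 or the D15 library of replicate 2; all genes gave 2.6% lower and 2.66% higher. Of the growth factor genes Igfbp5 and Igfbp4, which bind insulin-like growth factors, had -0.55 ± 0.10 and -0.45 ± 0.09. With all 30 libraries in 1 fit, Rarb, Col11a1, Col17a1, Igfbp5 and Igfbp4 were not called.

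Of 47 large-subunit ribosomal protein genes 4 were higher and 6 lower, with a median of -0.19, and of 31 small-subunit genes 2 were higher and 9 lower, with a median of -0.24, beside 2.66% of all genes higher and 2.6% lower. The 6 higher ones were Rplp0, Rpl3, Rpl29, Rpl34, Rps3a1 and Rps7, all with copies described above. The counts of called genes ran from 5 to 21 and from 2 to 17 when 1 library was left out, the lowest without the D22 library of replicate 2 and the highest without the D10 library of replicate 3 and the D25 library of replicate 1.

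Immediate early genes, which respond within minutes to handling or signals, gave 2 called of 16, both higher, beside 2.66% of all genes. Fosb stood at 37.7 CPM in replicate 2 at D18 against 0.80 and 0.23, and Fos at 73.1 at D22 against 16.3 and 4.52. At D10 replicate 2 was the lowest for both, and without the D22 library of replicate 2 neither was called. The call of Fos was lost in 9 of 18 fits that left out 1 library and in both limma fits, and that of Fosb in limma on CPM plus 0.1. Gas5, a host of small nucleolar RNAs, was higher by 0.99 ± 0.11 on 6 of 6 days. None of the tested hypoxia (20), sterol synthesis (20), proteasome (44) or aminoacyl-tRNA synthetase (34) genes was called in the edgeR fit, and leaving out 1 library gave at most 1 call in each of these lists.

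Contrasts other than the one behind the choice of replicate 2 were tested next. Those within D10 to D25 use the same libraries, so they are not independent of that choice. Between replicates 3 and 1 over the same 6 days, 28 of 16903 genes were called (0.166%), 21 higher in replicate 3. They included Zic1, a factor of the dorsal neural tube (0.83 ± 0.14, adjusted p = 0.0267, edgeR), Cox17, a copper chaperone of the respiratory chain (0.73 ± 0.14, adjusted p = 0.0474), and Ndufb6, Ndufc1 and Ndufc2 of complex I (0.47 to 0.66). Of 74 tested genes of the nuclear respiratory chain list 3 were called, beside 0.166% of all genes. The largest changes were in gene models without a proper name, led by Gm27998 (8.46 ± 0.70) at a mean of 0.75 CPM. The largest on the lower side was Sap18 (-2.01 ± 0.29). None of the imprinted genes was called between replicates 3 and 1. DESeq2 called 388 genes and the fit without an expression filter 227, so this count depended on the tool and filter. In the edgeR fit 2435 genes had an unadjusted p below 0.05, beside 3371 in the comparison of replicate 2 with the others. The small number called does not show that replicates 1 and 3 were equal.

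Whether the gap of replicate 2 changed with time was tested as the gap over D18 to D25 minus that over D10 to D15. No gene of 16903 was called by edgeR (0%), 1598 had an unadjusted p below 0.05, and the smallest adjusted p was 0.169. Meg3 had a gap of 2.38 ± 0.84 over the early and 5.03 ± 0.88 over the late days, Grb10 2.73 ± 0.32 and 1.73 ± 0.33, and Ndn -1.50 ± 0.18 and -1.05 ± 0.18. These changes did not pass the adjustment, which does not show that the gaps were equal.

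The same contrast of replicate 2 with replicates 1 and 3 was tested at D0, D7 and D32, in 9 libraries outside those compared above. Limiting the comparison to D10 to D25 was part of the choice of replicate 2. No gene of 17257 was called by edgeR (0%), 231 had an unadjusted p below 0.05, and the smallest adjusted p was 0.101. The 231 are fewer than a threshold of 0.05 gives when no gene differs. With 9 libraries, the lack of calls does not show that the gap was absent on these days. For Meg3 the gap there was -0.53 ± 0.47, for Rian -0.28 ± 0.34, for Grb10 -0.18 ± 0.11, for Ndn 0.055 ± 0.122, for Rps3a1 -0.081 ± 0.102, for Rpl3 -0.041 ± 0.107 and for Capn11 -0.0052 ± 0.276. For Rps3a1 and Rpl3 this repeats that the copy shares of each of these days went together. Of 33 imprinted genes, 1 had an unadjusted p below 0.05 in these libraries. Whether the gap differed between the 2 sets of days was not tested, since the gap at D10 to D25 had been used to choose the libraries.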

How the data were processed

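Directional mRNA-seq libraries of retinal organoids were used; whether counting used strand is not given in the sources used here, so antisense and overlapping genes are uncertain. Per the submitters' processing notes, the authors trimmed reads with Trimmomatic 0.36 and estimated counts with kallisto 0.42.4 on GRCm38.p4; how transcripts were joined into genes is not given there. The deposited gene table holds estimated counts, which were rounded. Printed levels are the authors' deposited signal, a normalised CPM made with edgeR per the submitters' processing notes. Across the 3 tables, 9 columns match no sample and were not used. kallisto divides ambiguous reads between near-identical transcripts, so genes with copies are uncertain.

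Genes were kept by filterByExpr (minimum count 10, minimum total 15; 18291 of 45594 genes), scaled by TMM and fitted in edgeR 4.0.16 (R 4.3.3) with day and replicate number as terms; the contrast is replicate 2 minus the mean of 1 and 3. Quasi-likelihood p-values were adjusted by Benjamini-Hochberg over all tested genes. The script was tested on simulated data. Shared windows are 31-base stretches of GENCODE M21 transcripts (111801 of 113468 matched). SEs and p-values measure only the spread between libraries of these 3 numbers, not the spread between cultures. Depth was 16.77 to 22.09 M estimated counts per library, and genes of a few CPM are the least precise.

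Members and lists were chosen with earlier results of these data known. Named are the 12 largest changes in each direction among called genes of at least 2 CPM that lie on 1 side on at least 5 of 6 days (models without a proper name passed over), 5 pseudogenes in each direction, leading members of each list and the Rpl3 family; those not printed are not described, and 1 gene is not reported here. Alternatives were RLE factors, library size, TMM without pseudogenes and ribosomal genes, DESeq2 1.42.0, 2 filters, limma 3.58.1 on deposited CPM plus 1 or 0.1, counts summed from transcripts, copies summed, all 30 libraries and leaving out each library.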

Additional observations from a re-analysis of the deposited data

How the results depend on the processing

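Libraries were matched by day, since day is a term of the fit. They could not also be paired by replicate number, because that number is the quantity compared. The 889 genes called became 502 with all 30 libraries in 1 fit, and between 554 (without replicate 2 of D15) and 872 when each of the 18 libraries was left out; the other alternatives gave 843 to 1328, within 1.5 times. The 87 pseudogenes became 33 when copies by shared windows were summed with their gene, an alternative added after seeing the data, and 69 to 95 when a library was left out. The 28 genes called between replicates 3 and 1 became 388 by DESeq2, 227 without a filter and 13 with counts summed from transcripts (the last 2 added after seeing the data), and 10 (without replicate 1 of D18 or of D22) to 208 (without replicate 1 of D10) when a library was left out. The change between early and late days gave 0 calls in every alternative run, and the contrast at D0, D7 and D32 gave 0, or 0 to 1 without a library (1 without replicate 1 or 3 of D0 or replicate 2 of D7). Rps3a1 turned to -0.090 and Eno1 to -0.30 with copies by shared windows summed, and Rpl3 to -0.12 with copies named -ps summed and to -0.12 by shared windows; summing is how these alternatives were built. Of 3442 values of 115 named genes under alternatives, 2969 kept direction and call, 469 kept direction but lost the call and 4 turned. For the other lost calls the cause was not tested. Genes near 0 CPM are limited by depth.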

Other observations

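Further genes in the comparison of replicate 2 with replicates 1 and 3 over D10 to D25 are given here as a description. Of 280 solute carrier genes tested, 9 were higher and 7 lower, beside 5.26% of all genes called, and 10 were called without the D12 library of replicate 2. Slc6a17, a transporter of neutral amino acids in synaptic vesicles, stood at 18.9, 34.5 and 55.9 CPM (lowest, median, highest) in replicate 2 and at 8.79, 17.3 and 27.6 in the others, and it was the highest on 6 of 6 days (log2 change 1.06 ± 0.16). Slc4a8, a sodium-driven bicarbonate exchanger, stood at 35.6, 37.9 and 70.8 CPM against 35.7, 64.1 and 110 (-0.60 ± 0.13). Of 16 tubulin genes 3 were lower, beside 2.6% of all genes, and 5 were called without the D10 library of replicate 3. They included Tubb6 (-0.86 ± 0.11) and Tuba1c (-0.60 ± 0.09), each the lowest on 6 of 6 days, while Tuba1a, the most abundant, was not called (0.18 ± 0.07).

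Lens genes gave 2 called of 6, both higher and both at low levels, beside 2.66% of all genes. The median log2 change over the 6 was -0.045. Replicate 2 lay above both others on at least 5 days for 2 members and below for 1. Cryba1, a lens crystallin, stood at 0.68, 2.64 and 7.91 CPM in replicate 2 and at 0.30, 0.74 and 1.74 in the others, and the call of Bfsp2, a filament protein of lens fibres, was lost in 13 of 18 fits that left out 1 library. Klf4, one of the genes used to reprogram the line, stood at 3.17, 5.14 and 6.92 CPM against 1.49, 2.51 and 4.79, and it was the 1 called member of 7 tested genes of undifferentiated cells, beside 2.66% of all genes called higher; without replicate 1 or replicate 2 of D22, 2 were called. Hist2h2be, a histone gene, stood at 18.07, 29.2 and 38.0 CPM against 8.26, 17.6 and 26.9 (0.71 ± 0.095).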
